A study of Mus musculus with 7 samples.

Results

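Ghrl, Mboat4 and Ghsr encode the peptide hormone ghrelin, the enzyme that acylates it and the receptor that binds it. They are 3 of the 55536 genes counted in sorted pancreatic alpha cells of mice with or without the homeodomain transcription factor NKX2-2. The 3 genes were picked by symbol, and their difference between the groups was among the measured values that led to the choice, so their levels are described here with no p-value and no call. The 4 control libraries came from Nkx2.2+/+;Gcg-iCre;Rosa26:tdTomato mice and the 3 knockout (KO) libraries from Nkx2.2fl/fl;Gcg-iCre;Rosa26:tdTomato mice. Both groups thus carry the glucagon-driven iCre and the tdTomato reporter, on a C57B1/6J background as the submitters spell it. The iCre acts in cells that use or have used the glucagon gene, and a recombined reporter stays on in them and their descendants. Cells were taken by fluorescence-activated sorting and their RNA was sequenced. The study asked which genes NKX2.2 regulates in alpha cells in vivo. Age and the number of animals behind a library are not given in the labels, so the p-values below measure the spread between these libraries, which may be technical in part.

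Ghrelin is made as a longer precursor and cut out by a prohormone convertase. Its serine 3 is joined to octanoate, a medium-chain fatty acid, by MBOAT4 (ghrelin O-acyltransferase, GOAT), a membrane-bound enzyme of the endoplasmic reticulum, and this acyl form is the one that activates the receptor GHSR. Most ghrelin comes from the stomach, while the islet holds a small population of ghrelin cells, the epsilon cells, which are most frequent before birth. In mouse islets GHSR has been described mainly in delta cells, where ghrelin stimulates somatostatin release. Embryos that lack Nkx2-2 throughout the body are known for islets in which ghrelin cells take the place of other endocrine cells.

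The part of the Ghrl message that encodes mature ghrelin is shown because it holds the codon of the serine that MBOAT4 acylates in the peptide. Ghrl (ENSMUSG00000064177) lies on the minus strand of GRCm38 at chr6:113716119-113719880, and 6 of its 7 transcripts in GENCODE M21 open the mature stretch with the same codons. In the transcript Ghrl-201 the 28 codons of mature ghrelin come from 2 exons between chr6:113719182-113719360. The transcript Ghrl-205 lacks the 1 codon cag after base 39 of this stretch, which leaves 81 of 84 bases. Both read, 5′ to 3′ with the serine codon at position 3 in capitals:
Ghrl-201: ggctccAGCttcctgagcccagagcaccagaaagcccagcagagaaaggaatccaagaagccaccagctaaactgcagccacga
Ghrl-205: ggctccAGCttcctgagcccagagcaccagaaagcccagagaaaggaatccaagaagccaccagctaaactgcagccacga
The counts are per gene, so these forms were not told apart. Mboat4 (ENSMUSG00000071113) lies on the plus strand at chr8:34115030-34125182. Ghsr (ENSMUSG00000051136) lies on the plus strand at chr3:27371351-27378010.

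The 250 bases before the RefSeq starts of Ghrl and Ghsr are shown because NKX2-2, the deleted factor, is a DNA-binding protein whose known site has the core AAGTG. The search also covered the fuller form TNAAGTG and CACCC, the box bound by Krüppel-like factors. All were searched on both strands, and TNAAGTG contains AAGTG. RefSeq's promoter table for GRCm38.p6 matched 2 of the 3 genes, with 4 windows for Ghrl and 1 for Ghsr. Matches to AAGTG or CACCC on either strand are in capitals, and the Ghrl windows are written on the minus strand.
Ghrl, outermost start, chr6:113719912-113720161: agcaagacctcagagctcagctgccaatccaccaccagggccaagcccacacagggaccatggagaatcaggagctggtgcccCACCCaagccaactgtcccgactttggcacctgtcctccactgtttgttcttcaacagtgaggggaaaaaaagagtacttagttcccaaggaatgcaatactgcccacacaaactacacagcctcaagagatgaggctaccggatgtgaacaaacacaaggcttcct
Ghrl, internal start, chr6:113717693-113717942: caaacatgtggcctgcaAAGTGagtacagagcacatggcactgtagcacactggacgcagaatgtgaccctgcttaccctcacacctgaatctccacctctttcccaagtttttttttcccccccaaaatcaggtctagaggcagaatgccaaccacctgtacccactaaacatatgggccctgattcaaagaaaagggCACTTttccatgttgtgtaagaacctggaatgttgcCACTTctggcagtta
Ghsr, chr3:27371101-27371350: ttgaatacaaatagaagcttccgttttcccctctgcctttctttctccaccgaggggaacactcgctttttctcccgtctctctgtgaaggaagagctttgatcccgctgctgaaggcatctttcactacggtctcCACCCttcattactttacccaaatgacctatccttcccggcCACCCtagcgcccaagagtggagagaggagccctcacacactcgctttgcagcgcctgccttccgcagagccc
The outermost Ghrl window held 1 CACCC and no AAGTG. The window before the internal start, which lies wholly in introns, held 3 AAGTG and no CACCC. The other 2 Ghrl windows lie wholly in exons, overlap each other and are not printed. They shared the same 1 CACCC site and held no AAGTG. Of the 4 Ghrl windows, 1 thus held AAGTG. The Ghsr window held 2 CACCC and no AAGTG. Across 32851 promoter windows of this length, AAGTG was present in 40.7%, CACCC in 52.0% and TNAAGTG in 10.1%. TNAAGTG was in none of the printed windows. These are letter matches in short windows. They report no binding, and each short motif is found in a large share of all promoters.

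Libraries held between 45483504 and 72456557 counts. Levels are given as normalized counts, the deposited count divided by a size factor that DESeq2 estimates for each library. Levels of different genes are compared only as TPM, a unit scaled by exon length and by the library's total. Of the alpha cell markers, Gcg averaged 27402 ± 2585 TPM (SD, n = 4) in the controls and 14961 ± 1320 TPM (SD, n = 3) in the KO libraries, the highest of the hormone messages in both groups. The alpha cell markers Ttr, Irx2 and Slc38a5 were detected in each library, with log2 fold changes of -1.90 ± 0.19, -0.51 ± 0.16 and -2.14 ± 0.18. The libraries also held messages of other islet cells, with Sst at 2223 ± 693 and 3979 ± 1386 TPM and Ppy at 2941 ± 995 and 9767 ± 2830 TPM in control and KO. Below, values of single libraries run in the order control 1, control 2, control 3, control 4, then KO 1, KO 2 and a KO library whose column has a number that matches no sample, here called unnumbered. Nkx2-2 itself stood at 8596, 11199, 12297 and 9782 normalized counts in the controls, against 7758, 7534 and 7694 in the KO libraries (log2 fold change -0.45 ± 0.13 SE, DESeq2 adjusted p = 0.0244). It kept this call without control 1 or control 4, lost it without any 1 of the other libraries (adjusted p of 0.0672 to 0.155) and did not pass in edgeR (0.152). The message was reduced and not absent, and counts per gene do not tell deleted from intact exons. Sex-linked genes did not separate the groups, but KO 1 and KO 2 each held both Xist (43397 and 25628 normalized counts) and Y-linked counts (1675 and 3491). Control 4 and the unnumbered KO library held less Xist (1049 and 808) beside 8844 and 11338 Y-linked counts. Control 3 had 5.23 of Xist.

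Ghrl was higher in each KO library than in any control. The controls had 479, 1307, 26.1 and 171 normalized counts. The KO libraries had 4673, 4637 and 2323. The controls were far apart from one another, with control 2 highest and control 3 lowest, and on a log scale the KO libraries were closer together. The means were 496 ± 573 (SD, n = 4) and 3878 ± 1347 (SD, n = 3), a ratio of 7.82. The fitted log2 fold change was 2.97 with an SE of 1.13. The low end rests on few reads: control 3 had 20 counts, for which the exact Poisson interval (95%, counting error only) was 16.0 to 40.4 normalized counts, while the KO libraries had 3135 to 4779 counts. In bulk libraries such as these, more ghrelin cells and more ghrelin message per cell cannot be told apart.

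On the per-length scale Ghrl was a minor hormone message. It averaged 2.64 ± 2.89 TPM in the controls, with a range of 0.122 to 6.67, and 22.8 ± 4.42 TPM in the KO libraries, with a range of 17.8 to 26.1. For each unit of Ghrl TPM the controls held 3609 to 222373 units of Gcg TPM, and the KO libraries held 515 to 882. Both parts of this ratio differed, since Gcg was lower in the KO libraries (log2 fold change -1.04 ± 0.15, DESeq2 adjusted p = 7.58e-10, but 0.175 in edgeR). Npy, another islet peptide, was nearest to Ghrl in level among the islet hormones, at 6.19 ± 7.81 TPM in the controls and 65.1 ± 8.22 TPM in the KO libraries.

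Mboat4 was a low message that was also higher in each KO library. The controls had 6.81, 35.4, 0 and 8.67 normalized counts, and the KO libraries had 141, 213 and 147. Control 2 was again the highest control and control 3 again the lowest, and the groups did not overlap. The means were 12.7 ± 15.6 (SD, n = 4) and 167 ± 39.9 (SD, n = 3), a ratio of 13.1. The fitted log2 fold change was 3.72 with an SE of 0.79. The controls rest on 6, 30, 0 and 12 counts, and a count of 0 in control 3 allows up to 3.92 normalized counts, taken as 3 counts and for counting error only. All 6 counts above 0 were even numbers. Over all genes, even numbers made up 84.4% to 88.9% of the counts between 1 and 10, depending on the library, so a count is often not 1 independent fragment and the counting intervals are too narrow. In TPM, Mboat4 averaged 0.0402 ± 0.046 in the controls and 0.596 ± 0.116 in the KO libraries.

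Ghsr showed the smallest difference of the 3 genes, and its groups overlapped. The controls had 399, 451, 175 and 217 normalized counts, and the KO libraries 664, 379 and 560.1. KO 2 lay below controls 1 and 2, whereas KO 1 and the unnumbered KO library lay above every control. The means were 310.5 ± 135 (SD, n = 4) and 534 ± 144 (SD, n = 3), a ratio of 1.72. The fitted log2 fold change was 0.78 with an SE of 0.35. Ghsr averaged 0.41 ± 0.176 TPM in the controls and 0.813 ± 0.288 TPM in the KO libraries. Ordered per length, the controls held Ghrl above Ghsr above Mboat4 on average, although in control 3 Ghsr (0.199 TPM) was above Ghrl (0.122 TPM). In the KO libraries the means of Mboat4 and Ghsr were closer than the SD of Ghsr.

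**Figure D1:**
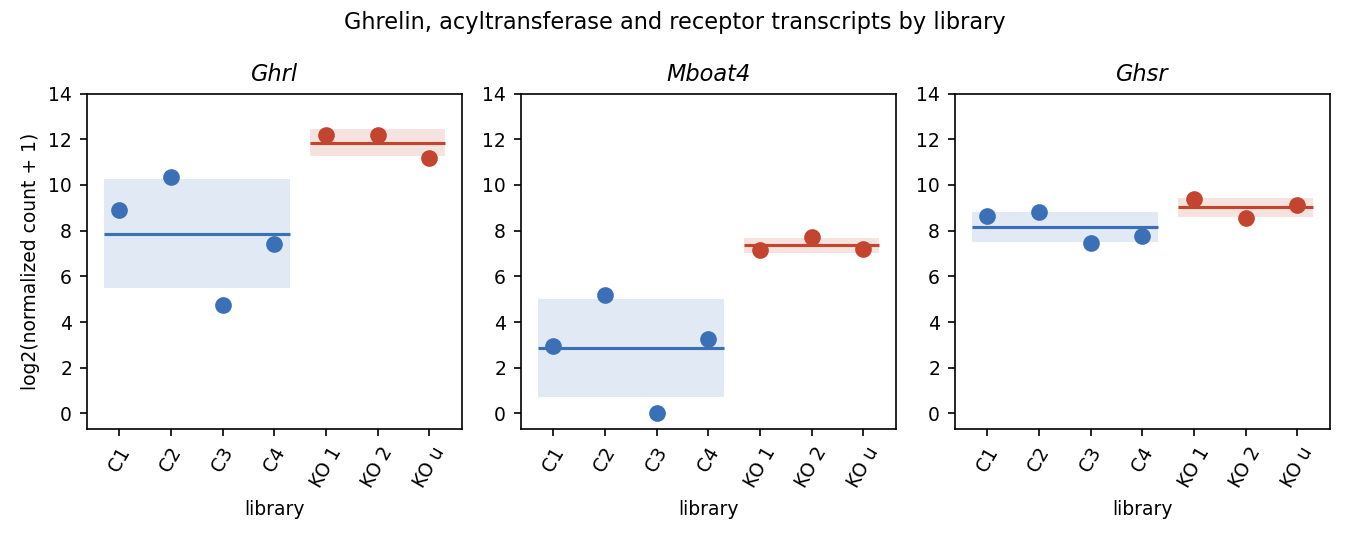
Normalized counts of Ghrl, Mboat4 and Ghsr in each of the 7 libraries, on a log2(normalized count + 1) axis, with controls and KO libraries in blue and red, lines at the group means of the log values and shaded bands of 1 SD around them. For Ghrl and Mboat4 the 3 KO points lie above all 4 control points, and for Ghsr KO 2 (379) lies below control 1 (399) and control 2 (451).

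Of the 3 genes, Ghrl and Mboat4 were higher in every KO library than in every control. Among all 19719 genes with an adjusted p in DESeq2, 1136 were (5.76%). Because this contrast was used to choose the genes, nothing is read from that count. DESeq2 was also fitted with each library left out in turn. Over these 7 fits the log2 fold change ran from 2.57 to 4.10 for Ghrl and from 3.32 to 4.92 for Mboat4. The groups of these genes did not overlap, so leaving out 1 library could not change the sign. For Ghsr the log2 fold change ran from 0.59 to 1.02. The lowest values came without control 3 and the highest without control 2 for each of the 3 genes.

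Values were also compared among libraries of one kind. For Ghrl and Mboat4 the direction was fixed in advance, since every KO library lay above every control. Control 3, control 4 and the unnumbered KO library shared high Y-linked and low Xist counts. Within them Ghrl averaged 98.4 in the 2 controls against 2323 in the KO library, Mboat4 4.34 against 147 and Ghsr 196 against 560.1. Control 4 and the unnumbered KO library were also the 2 deepest, and between them the ratios of KO to control were 13.6 for Ghrl, 16.9 for Mboat4 and 2.58 for Ghsr. Among the other 5 libraries the ratios were 7.71, 12.6 and 1.53. With a Y-linked term in the DESeq2 fit, Ghrl had a log2 fold change of 5.0 and Ghsr one of 1.33, each over 1.5 times its value without the term. These classes hold 1 KO library each in the first and the second case, so they give values and no test.

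Ghrl and Mboat4 also varied together over the 7 libraries and over the controls, but less so over the KO libraries. The correlation of their log2(normalized count + 1) was r = 0.972 over the 7 libraries (Spearman rho = 0.857). It was 0.951 over the 4 controls alone (rho = 0.8) and 0.412 over the 3 KO libraries alone (rho = -0.5). Among the latter, KO 1 had the most Ghrl and the least Mboat4. These values were close, with Ghrl at 4673 in KO 1 and 4637 in KO 2. Mboat4 was 141 in KO 1 and 147 in the unnumbered KO library. In both cases the counting intervals overlapped. With each group's mean subtracted r was 0.935 (n = 7), and without control 3 and control 4, the libraries farthest from the median of Ghrl, it was 0.963 (n = 5). All points share their library between both genes, and their depth differs. Sex-linked counts differed too. Xist was 43226 and 42539 normalized counts in controls 1 and 2, against 5.23 and 1049 in controls 3 and 4. Y-linked counts were 4.54 and 0 against 8764 and 8844. Ghrl was higher in controls 1 and 2 than in controls 3 and 4, while Mboat4 in control 1 was below control 4. The part of sex in these correlations was not tested. Mboat4 ranked 15th for likeness to Ghrl among 14569 genes with a mean of at least 50 normalized counts, of which 203 (1.39%) had r over 0.9. Ghrl in turn ranked 23rd for Mboat4. The genes were picked on the group difference that enters r, and their correlation was named in that choice. So r and these ranks are descriptions only. As a share of Ghrl TPM, Mboat4 was 0.836%, 1.59%, 0% and 2.99% in the controls. In the KO libraries that share was 1.77%, 2.70% and 3.71%.

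**Figure D2:**
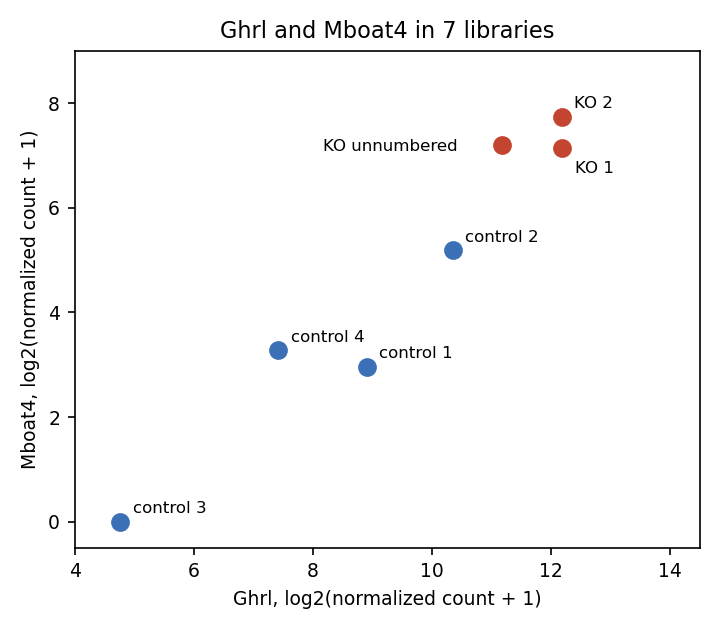
Mboat4 against Ghrl in the 7 libraries, both as log2(normalized count + 1), with each library named, controls in blue and KO libraries in red. The points run from control 3 at the lower left (26.1 Ghrl, 0 Mboat4) to the KO libraries at the upper right, with control 2 (1307 Ghrl, 35.4 Mboat4) the nearest control to them.

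The correlations of Ghsr were higher with 2 delta cell genes, Hhex and Sst, than with Ghrl or Mboat4. That of Rbp4, another listed delta cell gene, is not given here. Hhex, a transcription factor of delta cells, ranked 3rd of 14569 genes for likeness to Ghsr (r = 0.982, n = 7), and Sst ranked 38th (r = 0.952). With group means subtracted these correlations were 0.971 and 0.921. In all 148 genes had r over 0.9 with Ghsr, and Ghrl (0.894) and Mboat4 (0.819) were not among them. Hhex stood at 1224, 1596, 766 and 777 normalized counts in the controls, against 1959, 1207 and 1765 in the KO libraries. Sst had 328795, 372438, 214802 and 186722 in the controls and 582613, 299707 and 408438 in the KO libraries. As for Ghsr, KO 2 was the lowest KO library for both and lay below control 2. Neither passed the test between groups (DESeq2 adjusted p = 0.321 for Hhex and 0.549 for Sst). These libraries held delta cell messages in both groups, at levels that overlapped, and their part in the Ghsr values was not tested. Ghsr, Hhex and Sst were each higher in controls 1 and 2, with high Xist, than in controls 3 and 4, with high Y-linked counts. The part of sex was not tested either.

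The 5 genes most like Ghsr were Atf6, a sensor of stress in the endoplasmic reticulum (r = 0.988), Adgrf5, an adhesion receptor (0.986), Hhex, Zdhhc2, a palmitoyltransferase (0.980), and Plekhd1 (0.979). Of these only Adgrf5 passed the test between groups in DESeq2 (log2 fold change 1.00 ± 0.30, adjusted p = 0.0241). That call was lost without control 3, control 4, KO 1 or the unnumbered KO library (adjusted p of 0.0884 to 0.346). Adgrf5 did not pass in edgeR (adjusted p = 0.235). The 5 most like Ghrl were Crybg1 (0.989), Calcrl (0.988), Krt80, a keratin (0.987), Frmd6 (0.983) and Speg (0.982). None of the 5 passed the test in DESeq2. Calcrl encodes the receptor that binds calcitonin gene-related peptide and adrenomedullin, and is one of the receptors listed as present on ghrelin cells. It stood at 20.4, 113, 0 and 11.6 in the controls, against 219, 450.3 and 227 in the KO libraries, with a log2 fold change of 3.04 ± 1.45 and a DESeq2 adjusted p of 0.363. The groups did not overlap, and control 2 was again the highest control and control 3 the lowest. The 5 most like Mboat4 were AU040320 (0.994), Pphln1 (0.993), Abca8b (0.991), Frmd6 (0.988) and Unc5d, a netrin receptor (0.986). Unc5d rose in the KO libraries, with 47.7, 162, 18.3 and 44.8 normalized counts in the controls and 424, 390.4 and 385 in the KO libraries (log2 fold change 2.56 ± 0.55, DESeq2 adjusted p = 2.28e-04). That call was lost without control 4 (adjusted p = 0.0711) and in edgeR (adjusted p = 0.0973). With group means subtracted, the 5 most like Ghrl were Lnx2 (0.993), Thsd4 (0.987), Crybg1 (0.977), Nup188 (0.977) and Gm38910 (0.976), so Crybg1 was in both of its lists.

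**Figure D3:**
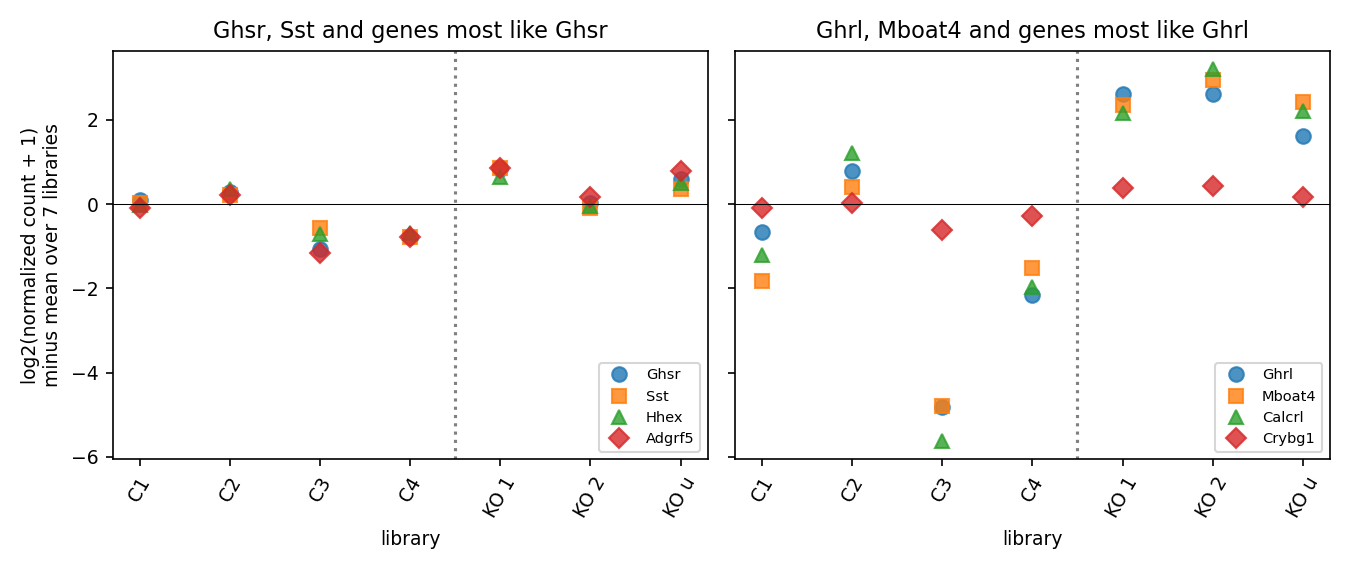
Levels over the 7 libraries, as log2(normalized count + 1) minus each gene's mean, of Ghsr with Sst, Hhex and Adgrf5 on one panel and of Ghrl with Mboat4, Calcrl and Crybg1 on the other, 1 symbol per gene and a dotted line between controls and KO libraries. In the Ghsr panel KO 2 lies below the other KO libraries for every gene, and in the Ghrl panel control 2 is the highest control and control 3 the lowest for every gene.

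The other genes of ghrelin production and response were counted from lists by role, 53 genes in all, of which 40 had an adjusted p. The lists were drawn up with earlier results of these data known. The counts are therefore descriptions, and no excess over all genes was tested. The threshold was an adjusted p under 0.05 over all genes. In DESeq2 8 of the 40 passed, 5 higher and 3 lower in the KO libraries. Over all genes 769 of 19719 passed (3.90%), of which 386 were higher in KO (1.96%). Their median log2 fold change was 0.03, beside 0.01 over all genes tested. In edgeR's quasi-likelihood test only Hhatl of these genes passed (adjusted p = 0.010), beside 203 of 19310 genes overall (1.05%).

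Among the 4 enzymes that cut or trim prohormones, 1 passed. Pcsk1 encodes the prohormone convertase that releases ghrelin from its precursor. It stood at 3839, 4327, 2789 and 2025 normalized counts in the controls, against 6887, 5649 and 5004 in the KO libraries. The groups did not overlap, with a log2 fold change of 0.85 ± 0.23 and a DESeq2 adjusted p of 0.00982. The call was lost without control 3 (adjusted p = 0.0702) and without KO 1 (adjusted p = 0.193). Pcsk2, the convertase that makes glucagon, had a log2 fold change of -0.06 ± 0.21, Furin 0.23 ± 0.15 and Cpe, a carboxypeptidase, -0.41 ± 0.15. These 3 did not pass.

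Of the 7 genes that supply or remove fatty acyl groups, 2 rose in the KO libraries. Acsl1, which activates fatty acids to acyl-CoA, had 692, 875, 649.7 and 625 normalized counts in the controls and 964, 1069 and 1028 in the KO libraries (log2 fold change 0.52 ± 0.16, DESeq2 adjusted p = 0.0398). The call was kept without control 2 and lost without any 1 of the other libraries (adjusted p of 0.0797 to 0.255). Bche, butyrylcholinesterase, is a plasma enzyme that can remove the octanoyl group of ghrelin. Its normalized counts were 6.81, 30.7, 13.1 and 11.6 in the controls and 74.3, 99.1 and 62.2 in the KO libraries, a low message whose groups did not overlap. The log2 fold change was 2.35 ± 0.61 (DESeq2 adjusted p = 0.00562), and the call was lost without KO 1 (adjusted p = 0.0946) and without KO 2 (adjusted p = 0.154). Acsl4, Acsl5, Acadm and Lypla1 had log2 fold changes between -0.09 and 0.15 and did not pass.

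Of 9 other MBOAT family members with an adjusted p, 1 fell and 1 rose. Hhatl, a relative of the Hedgehog acyltransferase, had 1511, 1227, 1531 and 1170.0 normalized counts in the controls. The KO libraries had 519, 456 and 623, all below every control. Its log2 fold change of -1.35 ± 0.18 passed in DESeq2 (adjusted p = 7.95e-12) and in 7 of 7 leave-one-out fits. Soat1, which esterifies cholesterol, had 1713, 1566, 1362 and 1351 in the controls and 2315, 2276 and 2125 in the KO libraries (log2 fold change 0.58 ± 0.13, DESeq2 adjusted p = 5.97e-04). It passed in 7 of 7 leave-one-out fits, and its adjusted p in edgeR was 0.0534. Mboat2, Mboat7, Dgat1 and Lpcat3, enzymes that acylate lipids, had log2 fold changes between -0.17 and 0.29 and did not pass. The log2 fold changes of these 9 relatives ran from -1.35 to 0.80, beside 3.72 for Mboat4.

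Of the receptors related to GHSR, only Gpr39 had an adjusted p. It had 442, 402, 467 and 264 normalized counts in the controls and 558, 642 and 555 in the KO libraries, without overlap, and did not pass (log2 fold change 0.57 ± 0.23, DESeq2 adjusted p = 0.186). Nmur2 and Trhr2 were at 0 counts in all 7 libraries. Of 9 genes whose products modulate GHSR or carry its signal, 6 had an adjusted p and none passed in DESeq2 or edgeR. Gnaq and Gna11, the G proteins that couple to GHSR, had log2 fold changes of -0.12 ± 0.13 and -0.03 ± 0.14. Plcb3, a phospholipase downstream of them, had 0.15 ± 0.15. Arrb2, an arrestin, had -0.41 ± 0.14 (DESeq2 adjusted p = 0.0802).

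Of 16 receptors listed as present on ghrelin cells, 13 had an adjusted p, 1 rose and 2 fell. Ffar4, a long-chain fatty acid receptor, had 1015, 1151, 1056 and 893 normalized counts in the controls and 1336, 1659.7 and 1340.2 in the KO libraries (log2 fold change 0.49 ± 0.15, DESeq2 adjusted p = 0.0326). Hcar1, the lactate receptor, had 419.8, 627, 724 and 733 in the controls and 213, 471 and 164 in the KO libraries, with overlap between KO 2 and control 1 (log2 fold change -1.15 ± 0.35, DESeq2 adjusted p = 0.0306). Sstr2, a somatostatin receptor, had 703, 663, 712 and 445 in the controls and 385, 449 and 323 in the KO libraries, with overlap between KO 2 and control 4 (log2 fold change -0.71 ± 0.23, DESeq2 adjusted p = 0.0435). Leaving out 1 library ended each of these calls in several cases. The call of Ffar4 was kept only without control 2 and otherwise lost, at adjusted p-values of 0.0599 to 0.312. That of Hcar1 was lost without control 2, control 3, KO 1 or the unnumbered KO library (0.0653 to 0.281). That of Sstr2 was kept without control 4 or KO 2 and lost without any of the others (0.137 to 0.247). The abundant receptors Sstr3, Casr, Gipr and Insr had log2 fold changes between -0.07 and 0.10 and did not pass.

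**Figure D4:**
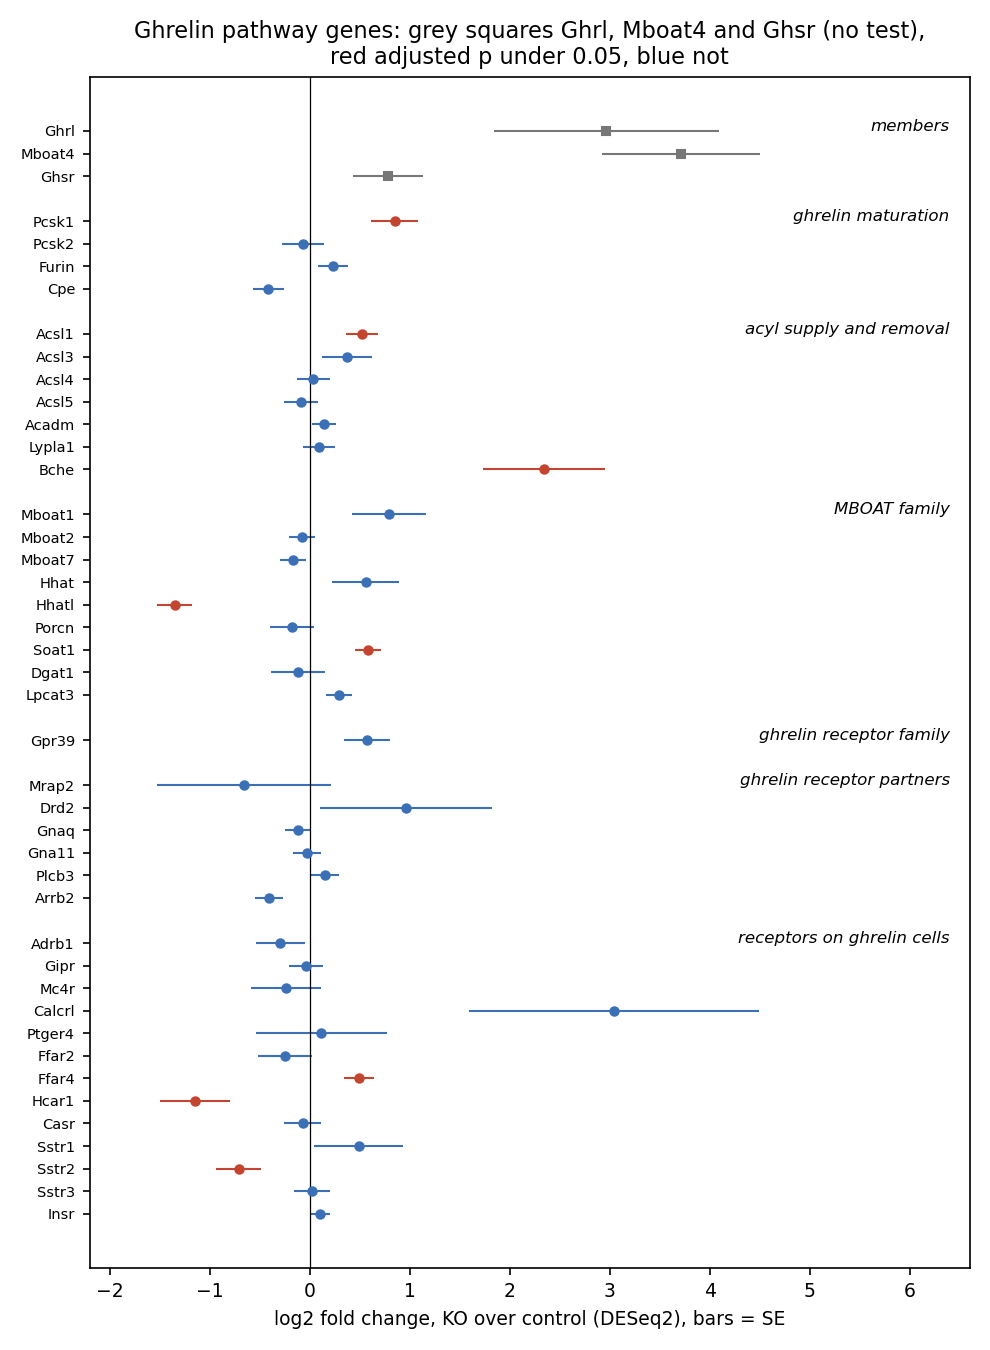
Log2 fold change of KO over control with its SE for the 40 tested genes of ghrelin production and response, grouped by role, with red points for an adjusted p under 0.05 in DESeq2, blue for the rest and grey squares for Ghrl, Mboat4 and Ghsr, for which no p or call is given. Bche (2.35) is the highest of the called pathway genes and Hhatl (-1.35) the lowest, and most of the others lie near 0.

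Of 11 genes listed as enriched in epsilon cells, 5 had an adjusted p, of which 1 rose and 1 fell. Of these 5, 3 had a positive log2 fold change. The summed normalized counts of the list were lower in the KO libraries, at 15001 to 15559 against 17856 to 20351 in the controls. Acsl1 rose and Etv1, a transcription factor, fell (log2 fold change -0.51 ± 0.12, DESeq2 adjusted p = 6.75e-04). Frzb, a secreted inhibitor of Wnt signalling, had 0.47 ± 0.24 and did not pass. Nnmt was at 0 counts in all 7 libraries. Among the islet lineage factors, Isl1 rose (0.44 ± 0.13, DESeq2 adjusted p = 0.0251), and the deleted gene Nkx2-2 fell. The call of Isl1 was lost without control 1, control 3, KO 1 or KO 2 (adjusted p of 0.123 to 0.237). In edgeR neither Isl1 (adjusted p = 0.169) nor Etv1 (0.0764) passed. Among 8 islet hormones, Ppy, Pyy, Iapp and Npy rose and Gcg fell in DESeq2. In edgeR Ppy alone of them passed (adjusted p = 0.0474). The call of Iapp was lost without KO 1 (0.0847) or the unnumbered KO library (0.109). Npy had 132, 1833, 358 and 191 normalized counts in the controls and 5399.6, 6328 and 5047 in the KO libraries (log2 fold change 3.15 ± 0.97, DESeq2 adjusted p = 0.0325), and of the leave-one-out fits it passed only without control 2. Without control 1, control 3 or control 4 its adjusted p was 0.0764 to 0.167, and DESeq2 gave none when any KO library was left out. Ghrl is a hormone of the stomach, and of 8 gut hormone genes 5 were tested. None rose, and Gast, gastrin, fell from 22.8 ± 11.3 to 2.13 ± 2.23 normalized counts (SD, n = 4 and 3; DESeq2 adjusted p = 0.0488), a call that held in 0 of 7 leave-one-out fits. Its adjusted p was 0.0513 to 0.304 without control 2, control 3, control 4 or KO 1, and DESeq2 gave none in the other fits.

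Markers of other cells were measured beside these genes. The summed normalized counts of 7 duct markers ran from 25968 to 32618 in the controls and from 34358 to 35124 in the KO libraries. Spp1 was the 1 of the 7 that passed (DESeq2 adjusted p = 0.0275), and it passed in 2 of 7 leave-one-out fits (without control 4 or the unnumbered KO library; adjusted p up to 0.311 otherwise). Sox9, a factor of duct cells, had 249.6, 586, 94.1 and 139 in the controls and 862, 1039 and 682 in the KO libraries, with control 2 the highest control, control 3 the lowest and no overlap between groups, while the duct keratin Krt19 stayed between 5.87 and 59.9. The 6 endothelial markers summed to 229 to 443 in the controls and 373 to 1022 in the KO libraries, and none passed. The 6 mesenchymal markers summed to 1402 to 3922 and 2313 to 4187. The 8 acinar markers summed to 307 to 12705 in the controls and 1782 to 6764 in the KO libraries, and control 3, lowest in Ghrl, was highest in them. The 6 leukocyte markers summed to 976 to 1545 and 888 to 1036, with Ptprc at 0 in controls 1 and 2. C1qa fell (DESeq2 adjusted p = 0.0127), while the other 5 had a positive log2 fold change. In edgeR none of the 6 passed. The 5 Schwann cell markers summed to 902 to 1421 and 1014 to 1149. The part of duct, endothelial or mesenchymal cells in the Ghrl and Mboat4 values was not tested.

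The nearest protein-coding genes around Ghrl did not pass the test. Tatdn2, 5050 bases from Ghrl, and Sec13, 8182 bases from it on the other side, each had a log2 fold change of 0.07. On the opposite strand Ghrl is overlapped by Gm26982 (100.1 ± 13.2 normalized counts in the controls, SD, n = 4, and 135 ± 35.5 in the KO libraries, SD, n = 3) and Gm44033 (32.6 ± 18.2 and 40.6 ± 5.80), and 15.9% of its exon bases lie under their exons. The strand setting of the counting is not given in the sources used here, so reads of these genes and of Ghrl might be mixed. In single libraries Gm26982 ran from 81.4 to 175. The antisense gene over Mboat4, Gm39158, had at most 2.36 normalized counts in any library, and Leprotl1, 10390 bases away, had a log2 fold change of 0.04. Ghsr has no exon on its opposite strand (0% of its bases), and its neighbours Tnfsf10 and Fndc3b had log2 fold changes of 0.38 ± 0.31 and -0.14 ± 0.08, neither passing in DESeq2.

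**Figure D5:**
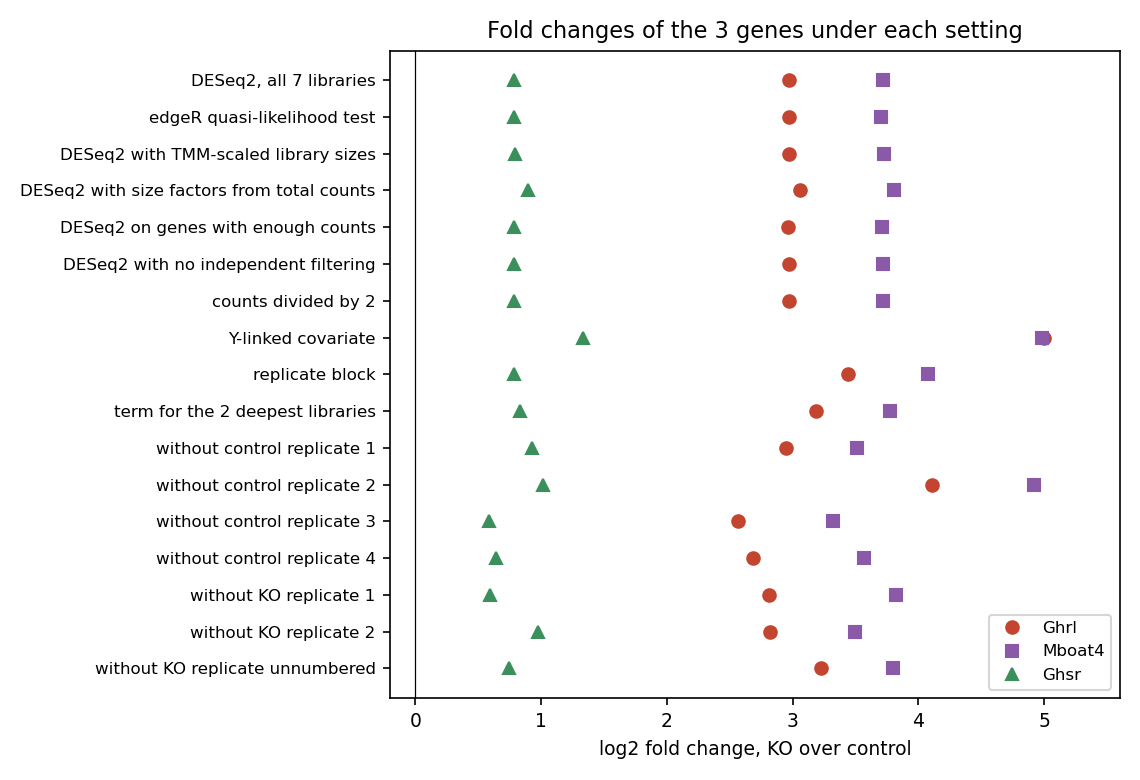
Log2 fold change of KO over control for Ghrl, Mboat4 and Ghsr under each way of fitting the counts, including the leave-one-out fits, one row per setting and one colour per gene. All points lie above 0. Ghrl reaches from 2.57 without control 3 to 5.0 with a Y-linked term, and Ghsr from 0.59 to 1.33. For Ghrl and Mboat4 the sign in the leave-one-out fits was fixed, since their groups did not overlap.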

How the data were processed

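RNA from sorted cells of 4 control and 3 KO libraries was sequenced. The labels name both polyA RNA and a total RNA kit with ribosomal depletion, and which applies was not settled here. The authors deposited 1 table of raw counts per gene, made with FastQC, STAR and featureCounts on mm10, per the submitters' processing notes; versions, gene annotation and strand setting are not given in the sources used here. The series text states DESeq2 on these groups without batch correction, which was followed: DESeq2 1.42.0 in R 4.3.3 on the full table, Wald test, default filters, Benjamini-Hochberg adjusted p under 0.05. edgeR 4.0.16 (quasi-likelihood) was the alternative. Scripts were tested on simulated data. TPM used exon lengths and positions used GENCODE M21 on GRCm38. Correlations used log2(normalized count + 1) of genes with a mean of at least 50.

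The KO column without a matching number was assigned to its group only. Genes, lists and members were chosen with earlier results of these data known. Named genes were the 3 members, listed genes that passed plus up to 4 per list with the highest means, the 5 most correlated genes per member, and neighbouring or overlapping genes. Sox9, Spp1, Krt19, Ptprc, C1qa, Mboat1, Nnmt, Nmur2 and Trhr2 were named after their values were seen. Some listed genes are not reported here. Alternatives were size factors, filters, a Y-linked term, a replicate block, leaving out each library and, added after seeing the data, a term for the 2 deepest libraries.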

Additional observations from a re-analysis of the deposited data

Results flagged for a closer look

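Among the 4 controls, 7 of the 86 genes examined had 1 library far from the others, judged by the gap to its nearest neighbour as a share of the range. For normally distributed values about 1 in 20 (4.3 genes) would be flagged. Low counts do not follow that distribution, so nothing is read from the number of flags. Control 2 stood apart in 4 of them, control 4 in 2 and control 3 in 1. Pcsk2 was 165180.2 normalized counts in control 4 and 294130 to 318439 in the other controls. Npy was 1833 in control 2 and 132 to 358 in the others, and control 2 also had the most Ghrl and Mboat4 of the controls. The other cases rest on few counts. Vtn was 16.5 in control 2 against 2.61 to 4.54, and Cck was 11.8 in control 2 against 2.27 to 2.89. Ntsr1 was 2.61 in control 3, Trhr 2.89 in control 4 and Gm39158 2.36 in control 2, each with 0 in the other controls. For such genes the gap share is 1 by construction.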

How the results depend on the processing

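The log2 fold changes of Ghrl, Mboat4 and Ghsr stayed positive under every setting run, and that of Ghrl was 5.0 with a Y-linked term. The sign was fixed for Ghrl and Mboat4 when 1 library was left out, since their groups did not overlap. Genes called over the whole table numbered 769 in DESeq2, 203 in edgeR, 1245 with a Y-linked term, 1371 with a term for the 2 deepest libraries (added after seeing the data) and 430 (without KO 1) to 891 when 1 library was left out. The 8 pathway genes called became 1 in edgeR, 4 without independent filtering and 2 (without KO 1) to 7 in leave-one-out fits. The correlation of Ghrl and Mboat4 was 0.932 with a pseudocount of 10, 0.912 on CPM, 0.857 as Spearman rho, 0.935 with group means subtracted and 0.937 to 0.987 with 1 library left out. Genes that were not called changed sign in a few fits: over the fits that leave out 1 library Lnx2 ran from -0.033 to 0.13, Thsd4 from -0.14 to 0.25 and Gm38910 from -0.076 to 0.10, each lowest without control 3. The causes were not tested. Replicate numbers 1 and 2 are shared by both groups. Deviations from the group means correlated at 0.231 and 0.301 over 14570 genes, but with only 2 shared numbers these were not taken as pairs. With a replicate block 834 genes and 8 pathway genes were called, and the log2 fold changes were 3.44 for Ghrl, 4.08 for Mboat4, 0.78 for Ghsr and -0.022 for Gm38910. Depth limits Mboat4 in the controls, where it had 0 to 30 counts.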

Other observations

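Neurog3, the factor that starts the endocrine programme, was chosen for description after its values were seen. It had 234, 519, 163 and 199 normalized counts in the controls and 510.4, 437 and 336 in the KO libraries, and its correlation with Ghrl was 0.90 over 7 libraries and 0.869 with group means subtracted. The groups overlapped, and it did not pass between them (DESeq2 adjusted p = 0.647). Npy had a correlation with Ghrl of 0.801 over 7 libraries and 0.399 with group means subtracted. Ppy had 0.836 and Gcg -0.78 over 7 libraries. These are descriptions over libraries that share depth and group.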
